A study of Mus musculus with 6 samples.

Results

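The TRIM family comprised every known gene of the deposited count table whose symbol is Trim followed by a number, which gave 68 genes of 22036 known genes and 38207 genes and loci in all. They were measured by nanopore cDNA sequencing in 6 libraries from brain microglia of wild-type (WT) mice, 3 from sham-operated mice and 3 from mice given tMCAO, which commonly stands for a transient occlusion of the middle cerebral artery to model ischemic stroke. Each library pooled 30 mice, so the spread between libraries is a spread between pools. The labels name microglia while the extraction protocol names tissue, and the sources used here do not give the age of the mice, the time after surgery or how cells were isolated. All mice are labelled WT, and no other allele or agent is named. Total counts ranged from 2371235 to 2614512 in sham and from 1855495 to 2030550 in tMCAO libraries.

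TRIM proteins are named for a shared tripartite motif of a RING finger, B-box zinc fingers and a coiled coil. In most of them the RING finger works as a ubiquitin E3 ligase, which passes ubiquitin from an E2 enzyme to a target, while the domain at the C-terminal end (SPRY, NHL repeats, a PHD finger with a bromodomain and others) decides what is bound. In macrophages and microglia the family is best known for antiviral defence and for tuning the receptors that sense foreign nucleic acid, and several members are interferon-stimulated genes.

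The test for a change after tMCAO was passed by 3 of the 24 TRIM genes tested, near the share of all features. Of the 68 members, 16 had no count in any library, 28 had counts but too few to be tested, and 24 were tested. Levels below are CPM, counts per library scaled to the same total, and are not corrected for transcript length, so they are compared between libraries and not between genes. Log2 fold changes compare tMCAO with sham, carry their standard error (SE), and were tested with edgeR's quasi-likelihood test, with a call at an adjusted p under 0.05 over all 13127 features tested. By this test 2 members rose (Trim25 and Trim26), 1 fell (Trim11) and 21 did not pass. These 3 calls were 12.5% of the members tested, against 18.1% of all features, with 9.17% of all features called higher and 8.96% called lower. The median log2 fold change of the tested members was -0.17, against 0.00027 for all features and 0.09 for known genes, with 11 values above 0 and 13 below. Summed over the family, levels were 441 ± 33.3 CPM in sham and 457 ± 54.0 CPM in tMCAO (SD, n = 3 libraries each), and the groups overlapped. In such pools, fewer cells of a type and less RNA per cell cannot be told apart.

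**Figure D1:**
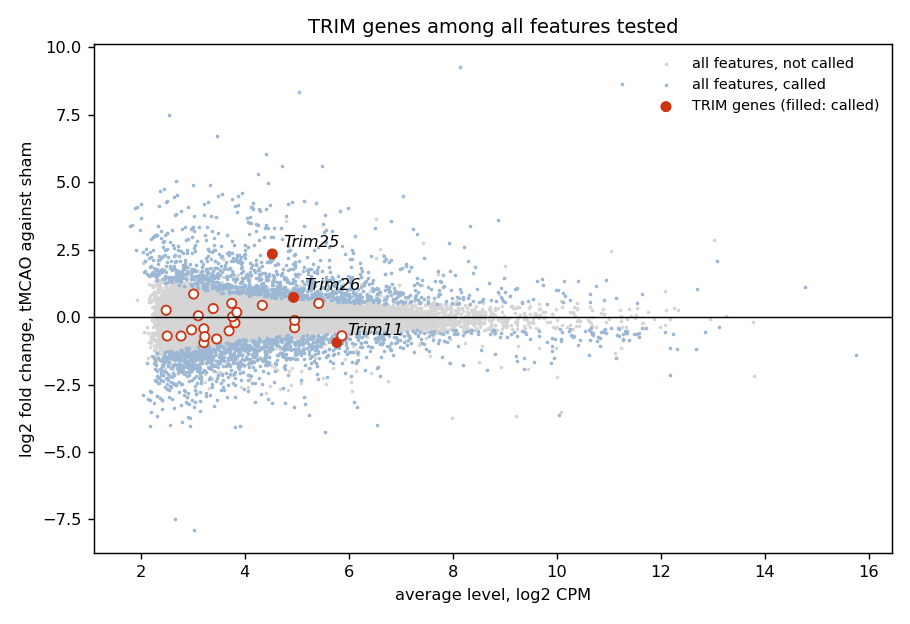
Log2 fold change (tMCAO against sham, vertical axis) against average level (log2 CPM, horizontal axis) for each of the 13127 features tested, with called features in blue and the 24 TRIM genes as red circles, filled where called. Trim25 at 2.34, Trim26 at 0.73 and Trim11 at -0.94 are the filled circles, and the other 21 lie among the grey points.

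The label of the pools was checked with marker lists. All 10 microglial markers were tested, and they summed to between 28203 and 28646 CPM in sham and between 24497 and 27873 CPM in tMCAO, with 4 lower and 0 higher. Of markers of other cells, 3 of 6 tested monocyte genes and 4 of 8 border-associated macrophage genes were higher, with sums of 76.9 to 92.8 CPM against 84.1 to 208 CPM for monocytes and 188 to 235 CPM against 390 to 497 CPM for border-associated macrophages. Lower were 1 of 10 tested neutrophil, 2 of 4 astrocyte, 1 of 8 oligodendrocyte and 1 of 7 choroid plexus genes. Choroid plexus sums were 8635 to 44663 CPM in sham, with the highest in sham 2, and 2275 to 9973 CPM in tMCAO. No tested lymphocyte (1 gene), endothelial (6) or erythroid gene (3) passed, no neuronal marker was tested, and Gad2 was the 1 marker of all lists with no count. Sums were 1816 to 2301 CPM in sham and 420 to 1825 CPM in tMCAO for neutrophils, 139 to 413 and 63.5 to 90.5 CPM for astrocytes, and 188 to 1049 and 153 to 350 CPM for oligodendrocytes. They were 178 to 260 and 118 to 308 CPM for endothelial, 38.2 to 49.5 and 27.5 to 38.9 CPM for lymphocyte, and 10.7 to 16.0 and 5.33 to 8.37 CPM for neuronal markers. The part of these cells in the TRIM values was not tested.

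Among the innate immune regulators encoded outside the Trim5-like cluster, Trim25 and Trim26 rose. Trim25 (ENSMUSG00000000275) encodes an interferon-inducible ligase known for its action on the RNA sensor RIG-I and as a partner of the antiviral protein ZAP. Its levels were 4.64, 8.72 and 7.27 CPM in sham 1 to 3 and 30.5, 41.0 and 43.1 CPM in tMCAO 1 to 3. Every tMCAO library lay above every sham library, with a wide gap between the highest sham and the lowest tMCAO value. The log2 fold change was 2.34 ± 0.29 (SE), a 5.07-fold rise, with an adjusted p of 0.000242 in edgeR's quasi-likelihood test, and its 95% interval ran from 1.71 to 2.98. Over 16 alternative ways of processing, its log2 fold change stayed between 1.97 and 2.58 and its adjusted p between 2.19e-14 and 0.00309, so the call of Trim25 held in each of them. In tMCAO 1 to 3, monocyte marker sums were 208, 92.2 and 84.1 CPM and border-associated macrophage sums 448, 390 and 497 CPM, and their part in the Trim25 values was not tested.

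Trim26 (ENSMUSG00000024457), a SPRY-domain ligase encoded on chromosome 17 that acts on antiviral signalling, had 23.2, 17.4 and 22.6 CPM in sham 1 to 3. In tMCAO 1 to 3 it had 36.9, 38.3 and 38.3 CPM, all above the sham libraries and closely spaced. This was a rise of 0.73 ± 0.21 on the log2 scale, or 1.66-fold, with an adjusted p of 0.0273 in edgeR's quasi-likelihood test. The call did not hold in 7 of 16 alternatives, while the log2 fold change stayed between 0.63 and 0.84. Leaving out any 1 of sham 1, sham 2, sham 3 and tMCAO 2 ended it (adjusted p of 0.0741, 0.0916, 0.0739 and 0.0602), and over the alternatives its adjusted p was at least 0.0138 and at most 0.0916.

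**Figure D2:**
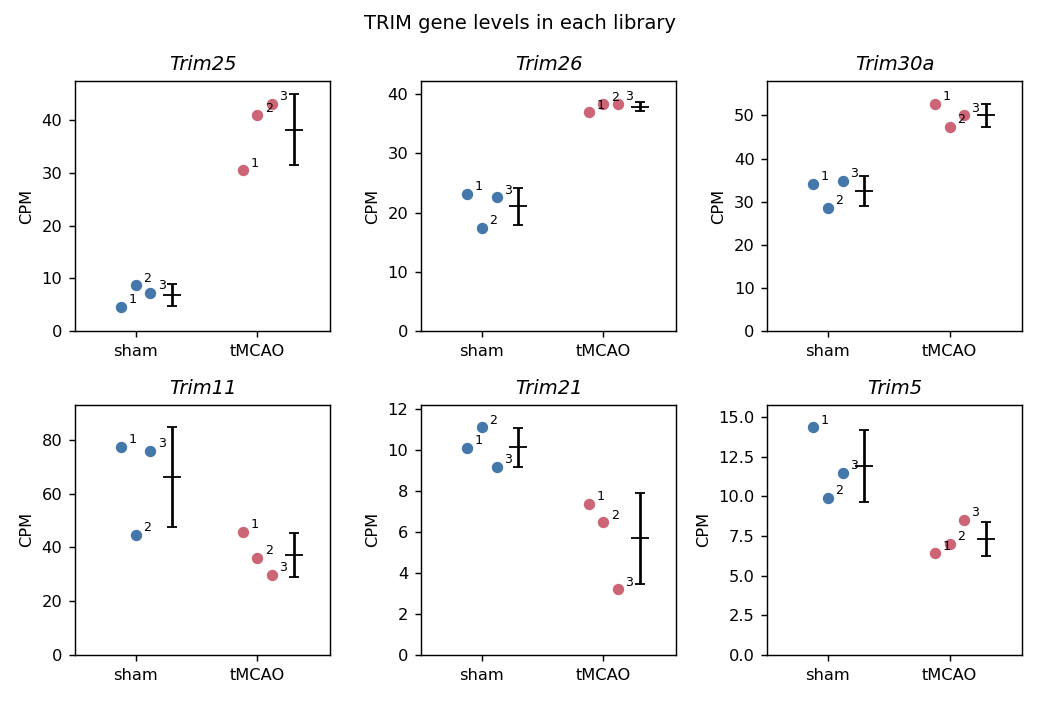
Level in CPM (vertical axis, from 0) of 6 TRIM genes in each library, with sham in blue and tMCAO in red, the replicate number beside each point, and black marks for the mean and SD of 3 libraries. Trim25, Trim26 and Trim30a lie higher in every tMCAO library than in any sham library, Trim21 and Trim5 lower, and for Trim11 the value of sham 2 (44.8 CPM) falls within the range of tMCAO.

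The sequences before the start sites of these called genes are shown because interferon response genes often carry a core element there. The RefSeq promoter table (build GRCm38.p6) holds 250 bases before and 50 after each start site, and it matched 53 of the 68 members. The core of the interferon-stimulated response element, GAAANNGAAA or TTTCNNTTTC on the other strand, was searched in both directions. It stood in 3.44% of all 32851 promoter records and in 3.99% of all genes of that table. Trim26 held overlapping matches. Trim25 had none in this window, though only exact matches were counted and near matches were not. Neither gene's record held a gamma-activated site, TTCNNNGAA, which 8.30% of all records held. Capitals mark the interferon core in the 250 bases before each start site, written 5′ to 3′ on the gene's own strand, which is the plus strand for both (chr17:36836896-36837145 and chr11:88999153-88999402).
Trim26: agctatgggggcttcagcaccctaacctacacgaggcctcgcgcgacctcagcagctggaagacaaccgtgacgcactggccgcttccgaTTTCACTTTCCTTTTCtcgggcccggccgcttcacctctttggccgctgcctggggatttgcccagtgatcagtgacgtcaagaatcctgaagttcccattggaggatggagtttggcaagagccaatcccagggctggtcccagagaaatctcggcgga
Trim25: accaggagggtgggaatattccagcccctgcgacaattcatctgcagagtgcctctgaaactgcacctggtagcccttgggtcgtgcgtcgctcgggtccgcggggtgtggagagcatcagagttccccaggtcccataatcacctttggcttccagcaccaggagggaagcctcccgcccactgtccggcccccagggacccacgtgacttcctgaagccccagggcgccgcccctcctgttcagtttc

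The other 6 tested genes of this group did not pass the test. Trim21 (ENSMUSG00000030966), the cytosolic receptor that binds antibody on incoming virus, had 10.1, 11.1 and 9.18 CPM in sham and 7.39, 6.47 and 3.20 CPM in tMCAO. All its tMCAO values lay below all its sham values, opposite to Trim25 and Trim26, yet its log2 fold change of -0.95 ± 0.36 missed the threshold in edgeR's quasi-likelihood test (adjusted p = 0.0847, from 0.0629 to 0.315 over the alternatives). Its 95% interval ran from -1.73 to -0.17. Trim65, a regulator of the RNA sensor MDA5, had a log2 fold change of -0.40 (95% interval -0.87 to 0.08) and Trim27, a ligase of immune and endosomal pathways, a log2 fold change of -0.47 (-1.40 to 0.45). Trim56, linked to the DNA sensing pathway, had 0.01 (-0.71 to 0.74), Trim23, which carries an ARF GTPase domain, 0.05 (-0.68 to 0.78), and Trim8, a modulator of NF-kB signalling, -0.21 (-0.89 to 0.46). For these 5 genes the groups overlapped and the intervals included 0. A change of any size within its interval remains possible for each gene. Trim65 shares exon sequence with Trim47 on the same strand in GENCODE M21, so their counts are uncertain. Trim14 (32 counts over all libraries) and Trim41 (47 counts) were too low to be tested, and Trim31 and Trim38 had no count in any library.

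The Trim5-like cluster on chromosome 7 holds the mouse relatives of the primate restriction factor TRIM5, which blocks retroviral capsids. Of its 10 members, 6 were tested, 0 rose and 0 fell, and 2 had an unadjusted p under 0.05. Trim30a (ENSMUSG00000030921), known as a brake on Toll-like receptor signalling, had 34.2, 28.5 and 34.8 CPM in sham and 52.7, 47.4 and 50.1 CPM in tMCAO. The groups did not overlap, but its log2 fold change of 0.51 ± 0.19 missed the threshold in edgeR's quasi-likelihood test (adjusted p = 0.0754, from 0.0380 to 0.190 over the alternatives). Scaling by library totals alone, which moved the median of all features to 0.11, gave 0.62 with an adjusted p of 0.0380. Its close copy Trim30d had 11.4, 10.7 and 13.4 CPM in sham and 17.2, 11.9 and 14.4 CPM in tMCAO (0.18 ± 0.28), and the groups overlapped. Trim34a had 12.7, 6.34 and 10.3 CPM in sham and 16.7, 17.2 and 11.2 CPM in tMCAO (0.51 ± 0.31), also with overlap, and an antisense gene shares its exon sequence, so its counts are uncertain.

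Trim5, Trim12a and Trim12c, the most similar of the tested genes, gave different values. Trim12a had 18.6, 13.9 and 13.8 CPM in sham and 25.1, 25.3 and 17.6 CPM in tMCAO (0.44 ± 0.25). Trim5 had 14.3, 9.91 and 11.5 CPM in sham and 6.40, 7.01 and 8.52 CPM in tMCAO, where every tMCAO library lay below every sham library (-0.81 ± 0.32, adjusted p = 0.0945 in edgeR's quasi-likelihood test). Trim12c had 26.6, 26.2 and 35.6 CPM in sham and 26.1, 27.5 and 34.1 CPM in tMCAO (-0.12 ± 0.23), with ranges that nearly coincide. In the longest coding model of each in GENCODE M21, which is 1491 bases long for Trim5 and Trim12c and 891 for Trim12a, Trim5 was 97.1% identical to Trim12a and 96.6% to Trim12c over the aligned bases, and Trim12a was 96.4% identical to Trim12c. The sources used here do not say how reads were divided among such copies, so the counts of each are uncertain. Summed over the 3 genes, levels were 59.5, 49.9 and 60.8 CPM in sham and 57.6, 59.8 and 60.2 CPM in tMCAO, with a log2 fold change of -0.05 and an adjusted p of 0.866 in edgeR's quasi-likelihood test, a sum chosen after the values were seen. Trim30a and Trim30d were 90.2% identical, and Trim34a was 98.2% identical to Trim34b, which had no count. Trim30b (22 counts), Trim30c (34 counts) and Trim6 (2 counts) were not tested.

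**Figure D3:**
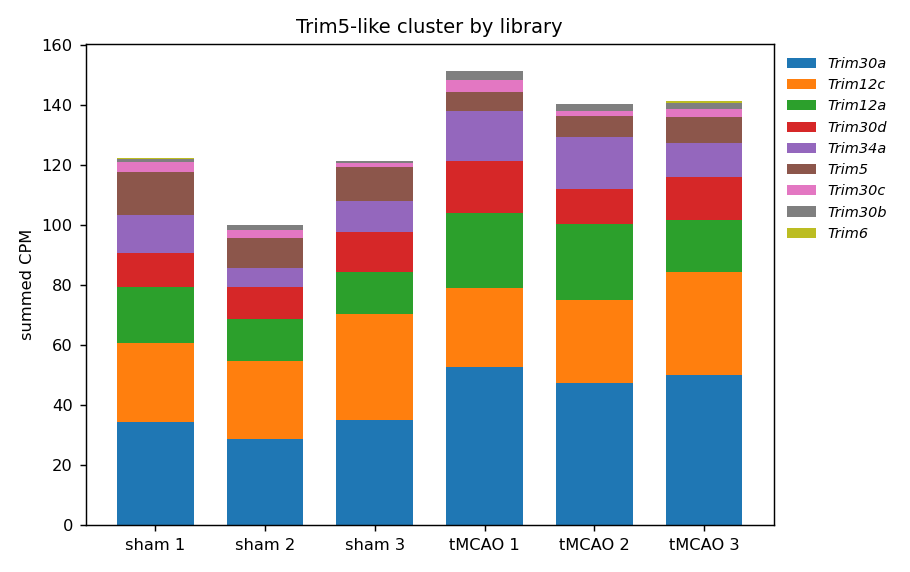
Summed level of the Trim5-like cluster in each library (CPM, vertical axis), stacked by gene. The columns reach 99.9 to 122 CPM in sham and 140 to 151 CPM in tMCAO, and the Trim5 segment is thinner in tMCAO while that of Trim30a is taller.

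These close copies also shared the sequence around the interferon core. Of the 53 members in the promoter table, 9 held the core (17.0%), and 6 of the 9 belong to this cluster, whose members share sequence and are not independent. The 30-base windows below carry the core in capitals and are written 5′ to 3′ on the gene's own strand, which is the minus strand of GRCm38.p6 for each but Trim34a. They lie on chromosome 7, at chr7:104288136-104288165 for Trim5, chr7:104315466-104315495 for Trim12a, chr7:104353359-104353388 for Trim12c, chr7:104465210-104465239 for Trim30a, chr7:104507871-104507900 for Trim30d, chr7:104244457-104244486 for Trim34a and chr7:102565450-102565479 for Trim21, which lies outside the cluster. Trim30a has a match at a further start site in the table, and Trim21 a match that overlaps the printed one.
Trim5: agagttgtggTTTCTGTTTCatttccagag
Trim12a: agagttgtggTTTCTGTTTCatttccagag
Trim12c: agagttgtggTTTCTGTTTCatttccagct
Trim30a: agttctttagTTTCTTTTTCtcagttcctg
Trim30d: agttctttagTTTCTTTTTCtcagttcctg
Trim34a: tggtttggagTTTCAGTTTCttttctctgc
Trim21: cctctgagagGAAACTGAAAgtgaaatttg
The windows of Trim5 and Trim12a were the same, and those printed for Trim30a and Trim30d were the same as each other. The Trim30a window at its further start site differed from them. In the printed windows the core began after the start site for Trim12a, Trim34a and Trim21, and before it for the others. The 9 tested members with the core had a median log2 fold change of 0.18, from -0.95 for Trim21 to 0.73 for Trim26, with 1 call. The 9 tested members in the table without it had a median of 0.01, from -0.70 for Trim47 to 2.34 for Trim25, also with 1 call. A further 6 tested members had no record in that table and could not be searched. Their median was -0.54, with 1 call, the fall of Trim11. The match is a description of these letters and not a binding site.

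Of the chromatin members, which join a PHD finger to a bromodomain, Trim28 and Trim33 were tested and neither passed. Trim28 (KAP1), the corepressor of KRAB zinc finger proteins that silences retroelements, had 12.7, 13.1 and 13.8 CPM in sham and 11.8, 10.8 and 7.46 CPM in tMCAO. Trim33, which binds SMAD proteins of the TGF-beta pathway, had 11.0, 9.91 and 8.41 CPM in sham and 7.88, 5.39 and 5.86 CPM in tMCAO. In both genes every tMCAO library lay below every sham library. The log2 fold changes were -0.51 ± 0.29 for Trim28 and -0.72 ± 0.33 for Trim33, with adjusted p-values of 0.237 and 0.151 in edgeR's quasi-likelihood test. Trim24, a nuclear receptor cofactor, had 11, 10 and 7 counts in sham and 8, 1 and 4 in tMCAO and was not tested, and Trim66 had no count.

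Over the whole family, all tMCAO libraries lay above all sham libraries for 4 tested members (Trim25, Trim26, Trim30a and Trim37) and below them for 4 (Trim21, Trim5, Trim28 and Trim33). The same held for 23.3% of all features tested in the upward and 14.6% in the downward direction, or 37.8% in either direction. These patterns were read in CPM scaled by library totals, while the calls used the TMM scaling of the edgeR fit. With library totals alone, the median log2 fold change of all features was 0.11. With 8 of 24 members in either direction, the family was near that background of all features. Among 8528 known genes tested, the upward pattern held for 2452 and the downward pattern for 902. Upward patterns thus outnumbered downward ones among known genes, while the 24 members had 4 of each.

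**Figure D4:**
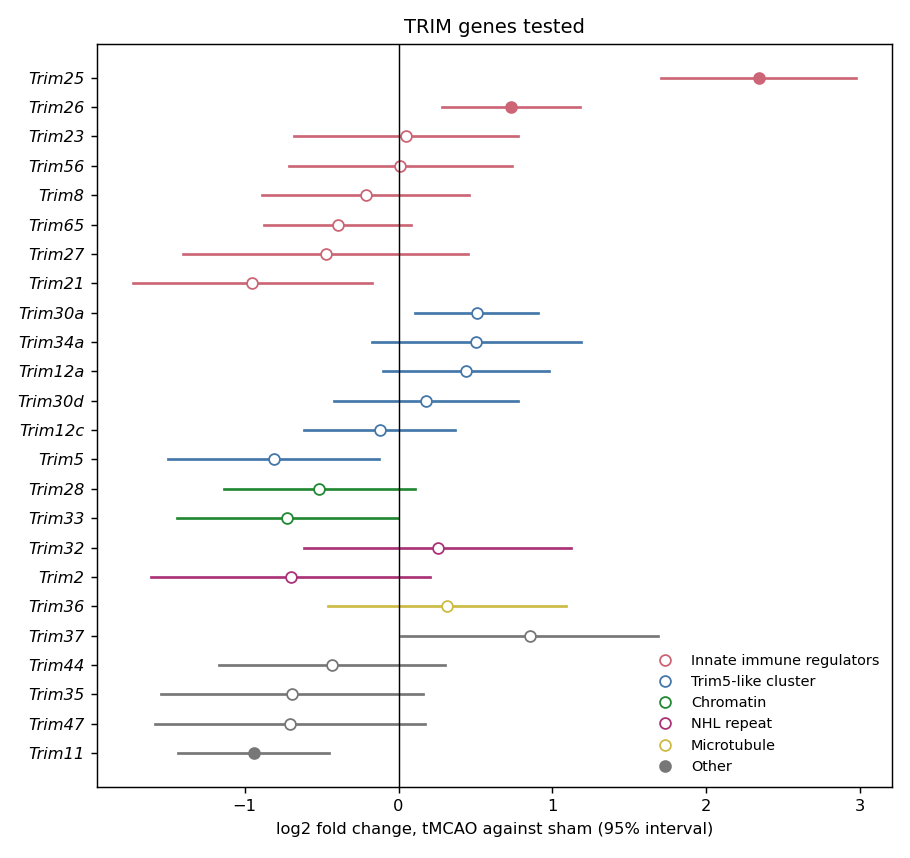
Log2 fold change (horizontal axis, tMCAO against sham) with its 95% interval for the 24 TRIM genes tested, coloured by role and filled where called. Trim25 stands alone beyond 1, and 21 of the 24 circles are open.

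Among members with other roles, Trim11 fell. Trim11 (ENSMUSG00000020455), a ligase known for clearing misfolded proteins and for its part in neural development, had 77.6, 44.8 and 76.1 CPM in sham and 45.8, 36.1 and 29.8 CPM in tMCAO. The groups touched, since sham 2 lay below tMCAO 1. The log2 fold change was -0.94 ± 0.23, a level 0.52 times that of sham, with an adjusted p of 0.0125 in edgeR's quasi-likelihood test. Leaving out sham 1, sham 3 or tMCAO 2 raised adjusted p to 0.0650, 0.0542 and 0.0523, past the threshold, and its range across the alternatives was 0.00109 to 0.0892.

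The remaining tested members did not pass. Trim35, a SPRY-domain ligase, had 77.2, 80.1 and 40.5 CPM in sham and 65.0, 44.2 and 25.0 CPM in tMCAO (-0.69 ± 0.37, adjusted p = 0.238 in edgeR's quasi-likelihood test). Its lowest value in each group was in replicate 3, and the groups overlapped. Another gene lies antisense to its exons, so its counts are uncertain. Trim44, which lacks the RING finger, had -0.43 (95% interval -1.17 to 0.30). Trim37, linked to centriole and peroxisome biology and picked here after its values were seen, had 4.64, 6.34 and 3.44 CPM in sham and 9.85, 12.4 and 6.39 CPM in tMCAO. Its lowest tMCAO and highest sham values nearly met, and the log2 fold change was 0.85 ± 0.39 (adjusted p = 0.146 in edgeR's quasi-likelihood test). Of the NHL-repeat members, Trim2, a ligase of the neurofilament light chain, had -0.70 (95% interval -1.61 to 0.21) and Trim32, a ligase best known from muscle, had 0.25 (-0.61 to 1.12). Trim3 (14 counts) and Trim71 (2 counts) were not tested. Trim36, which binds microtubules, was the 1 tested member of its group (0.32, -0.46 to 1.09), and the membrane-anchored Trim13 (6, 4 and 6 counts in sham, 6, 15 and 9 in tMCAO) and Trim59 (13 counts) were too low for a test.

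Most members had few or no reads. Of the 44 untested members, 16 had no count, 16 had 1 to 10 counts and 12 had 11 to 47 counts over all 6 libraries. A count of 0 allows up to 3 counts, which is 1.15 to 1.27 CPM in a sham library and 1.48 to 1.62 CPM in a tMCAO library, counting error only. Trim10, a gene of late red cell maturation picked after its values were seen, had 1, 3 and 2 counts in sham and 0 in each tMCAO library. Sums of the erythroid markers were 2865, 6041 and 955 CPM in sham and 301, 215 and 380 CPM in tMCAO. With 6 counts of Trim10 in all, their part in it was not tested.

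Other genes of the TRIM pathways were read from lists. The family has members under other symbols, of which 2 of 9 were tested. Pml (TRIM19), the scaffold of the nuclear bodies of that name, had 4.64, 2.38 and 4.59 CPM in sham and 14.3, 14.6 and 15.4 CPM in tMCAO. The tMCAO libraries lay close together above the sham libraries, and Pml rose by 1.81 ± 0.35 on the log2 scale (adjusted p = 0.00348 in edgeR's quasi-likelihood test). Mid1 (TRIM18), a microtubule-bound ligase, did not pass (0.48 ± 0.29).

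Among 15 tested genes that sense nucleic acid or relay the signal with TRIM proteins, 7 rose, 1 fell and 7 did not pass, so that 53.3% were called against 18.1% of all features, with a median log2 fold change of 0.90 against 0.00027 for all features. The list holds interferon response genes chosen with results of these data known, so its direction is not independent evidence. Irf7, a transcription factor of the interferon loop, rose by 3.93 ± 0.24, and Dhx58, the RIG-I relative LGP2, by 2.23 ± 0.30. Nlrp3, the inflammasome sensor, rose by 1.46 ± 0.20. Zc3hav1, which encodes the Trim25 partner ZAP, had 12.7, 3.96 and 7.27 CPM in sham and 26.6, 30.2 and 29.8 CPM in tMCAO, a rise of 1.75 ± 0.33. Ddx58, which encodes RIG-I, had 12.7, 14.7 and 16.8 CPM in sham and 35.0, 30.2 and 24.5 CPM in tMCAO. It rose by 0.90 ± 0.24 with an adjusted p of 0.0194 in edgeR's quasi-likelihood test, which became 0.0971 without sham 1 and 0.0674 without tMCAO 1 (0.00539 to 0.0971 across the alternatives). Isg15, the ubiquitin-like protein of the interferon response, rose by 2.28 ± 0.38 and the kinase gene Tbk1 by 0.76 ± 0.21, whose call ended when any 1 of sham 1, sham 2, sham 3 and tMCAO 2 was dropped (adjusted p of 0.0767, 0.0878, 0.0629 and 0.0872). Tmem173 (STING), the adaptor of DNA sensing, had 253, 212 and 261 CPM in sham and 197, 143 and 177 CPM in tMCAO, all lower. It fell by 0.60 ± 0.17 on the log2 scale, a call that ended without sham 1, sham 3 or tMCAO 2 (adjusted p of 0.0978, 0.0852 and 0.0986), with DESeq2 (0.0814) and with library totals alone (0.0532). Ddx58, Isg15, Tbk1 and Tmem173 were chosen for naming after their values were seen.

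Of 27 tested E1 and E2 genes, which load ubiquitin and its relatives, 2 rose and 0 fell, or 7.41% called against 18.1% of all features. Their median log2 fold change was 0.34, against 0.00027 for all features and 0.09 for known genes. Ube2c, the E2 of the anaphase-promoting complex, had 1.27, 2.38 and 2.68 CPM in sham and 49.2, 23.2 and 17.6 CPM in tMCAO (3.66 ± 0.46), and Uba7, the E1 for ISG15, rose by 0.83 ± 0.22, a call that ended without sham 2 or sham 3 (adjusted p of 0.0719 and 0.0631). Uba1, the main ubiquitin E1, had 0.58 ± 0.19 and Ube2v1, a partner of the lysine-63 chain enzyme, 0.45 ± 0.15, neither past the test. Their adjusted p-values were 0.0513 and 0.0565 in edgeR's quasi-likelihood test, and they passed in 2 and 3 of 16 alternatives. Of 11 tested partners of Trim28, 1 fell and 0 rose, or 9.09% called against 18.1% of all features, with a median log2 fold change of 0.25 against 0.00027. The gene that fell was the histone deacetylase gene Hdac2, with 11.0, 13.1 and 9.18 CPM in sham and 2.95, 2.16 and 4.79 CPM in tMCAO (-1.85 ± 0.40, adjusted p = 0.00762 in edgeR's quasi-likelihood test). Atf7ip (0.67 ± 0.22), Hdac1 (-0.49 ± 0.17) and Chd4 (0.43 ± 0.19) did not pass (adjusted p of 0.0503, 0.0634 and 0.124 in the same test). Atf7ip passed in 5 of 16 alternatives, Hdac1 in 1 and Chd4 in 0.

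**Figure D5:**
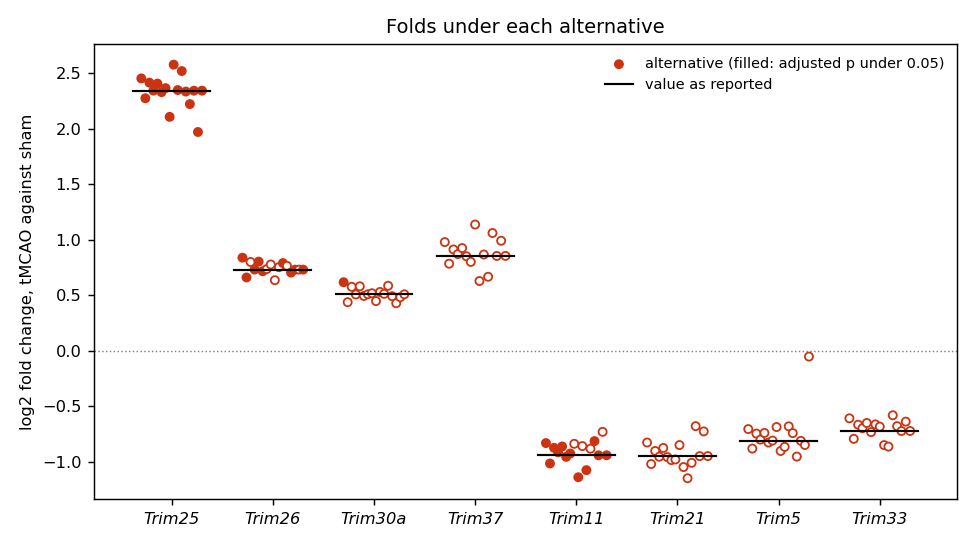
Log2 fold change (vertical axis) of 8 TRIM genes under up to 16 alternative ways of processing (15 each for Trim37 and Trim33), with the reported value as a black bar and circles filled where adjusted p is under 0.05. All circles of Trim25 are filled and lie between 1.97 and 2.58, those of Trim26 and Trim11 are in part open, and the Trim5 circle near 0 is the sum with Trim12a and Trim12c.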

How the data were processed

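Per the file headers, the authors deposited raw counts of reads for each gene, and CPM columns that they had scaled by library totals. Reads were handled with minimap2, per the submitters' processing notes. The sources used here give neither the genome build and annotation nor the counting rule and use of strand. Of 38219 lines, 12 held spilled text and were left out. The deposited CPM matched CPM recomputed from the counts to within 4.87e-06.

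All features were fitted together with edgeR 4.0.16 (R 4.3.3): filterByExpr (minimum count 10, minimum total 15), TMM scaling, robust dispersions and quasi-likelihood F tests with the group as the only term, and Benjamini-Hochberg adjustment. The SE is the absolute log2 fold change divided by the square root of F. Alternatives used DESeq2 1.42.0, limma voom 3.58.1, other scalings and filters, summed copies, a replicate block and libraries left out. The code was tested on simulated data.

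Members and lists were chosen with earlier results of these data known. Named are called members, members of the main role groups, the 3 highest tested members of other groups, and the 4 list genes with the smallest p. Same-numbered libraries did not deviate together (correlations of -0.21, 0.0186 and -0.174). With deviations taken within 3 libraries per group, this check cannot decide whether equal numbers share a preparation. Replicates differed by 4.64 to 9.02 chi-square units per degree of freedom, more than sampling noise. No label ties pools to a preparation day or batch, and p-values measure only the spread between these pools. In a library, 1 count is 0.382 to 0.539 CPM, and PCR reads are not independent molecules. Promoters are from RefSeq (GRCm38.p6), and gene models from GENCODE M21, which held all 68 IDs with the same symbols.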

Additional observations from a re-analysis of the deposited data

How the results depend on the processing

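Over 16 alternatives, 363 of 376 recomputed values of tested TRIM genes kept their side of the threshold, 11 lost a call and 2 gained one. No called value reversed. A change of direction without a call in either fit counted as kept. Such changes occurred, for example for Trim23 (-0.10 to 0.17 over the alternatives) and Trim56 (-0.23 to 0.21). The call of Trim25 held in all 16. The count of TRIM genes that rose, 2 as reported, was 1 with DESeq2, 1 with the replicate block, 1 without sham 1 and tMCAO 3 together (chosen after seeing the data), and 1 to 2 with each library left out, with Trim26 lost wherever it was 1. It was 3 with library totals alone, where Trim30a was added. For Trim26, adjusted p was 0.0684 with DESeq2 and 0.0685 with the replicate block. The count that fell, 1 as reported, was 2 with no filter on low counts, where Trim35 was added, 0 without sham 1 and tMCAO 3 together, and 0 to 1 with each library left out (0 without sham 1, sham 3 or tMCAO 2). All features changed numbered 2380 of 13127 tested as reported (18.1%) and 4039 of 31736 with no filter (12.7%). There were 1573 (11.4%) without sham 1 and tMCAO 3 together. With each library left out there were 1254 to 2590, with 1254 (9.31%) without sham 1 and 1558 (11.5%) without sham 3. DESeq2 gave 1658. The cause was not tested. The replicate block gave 1662 features, and no library correlated best with its own number. That check rests on 3 libraries per group and cannot decide whether same-numbered libraries pair. Low deposited counts kept 44 of the 68 TRIM genes, 16 of them without a count, out of the test.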
